A study of Rattus norvegicus with 32 samples.

Results

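Liver sinusoidal endothelial cells (LSECs), the fenestrated cells that line the hepatic capillaries, were examined here for 10 genes of the hypoxia response and of glycolysis, chosen by name from the 32623 genes of the RNA-seq tables. These are the hypoxia factors Hif1a and Epas1, the oxygen sensor Egln3, the glucose transporter Slc2a1, the hexokinases Hk1 and Hk2, the regulator Pfkfb3, the phosphofructokinase Pfkp, and the enzymes Pgk1 and Ldha. All 10 were found in the files and all 10 were expressed highly enough to be tested in each of 7 comparisons. The series holds 32 libraries. In the CCl4 model, 6 untreated Wistar Han rats (healthy) were set beside rats that inhaled carbon tetrachloride (CCl4), a liver toxin, for 2 weeks (acute, 5 rats), 6 weeks (fibrosis, 5 rats) or 12 to 14 weeks (cirrhosis, 6 rats), and per the study's methods phenobarbital was added to the drinking water in this model. A separate experiment with the liver toxin thioacetamide (TAA), whose libraries carry the letter T, held 5 libraries labelled control and 5 labelled TAA control. The labels and the study do not settle which of these groups received TAA, so a difference between them is given by label only. The labels name Wistar Han rats for the T libraries too, whereas the study's description names Sprague-Dawley. The study's methods name male rats for both toxin models, and in both LSECs were taken 5 to 7 days after the last dose of toxin. Ages are not given in the sources used here.

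Hypoxia inducible factors are dimers of an oxygen-regulated alpha subunit, such as those encoded by Hif1a and Epas1 (HIF-2alpha), with the constant partner ARNT. With oxygen present, prolyl hydroxylases of the EGLN family mark the alpha subunits for destruction, and with little oxygen the subunits build up and bind short DNA elements near genes of glucose uptake, glycolysis and vessel growth. This control acts mainly on the protein, which RNA-seq does not measure. Endothelial cells are known to take much of their energy from glycolysis, and Epas1 is known as a gene of high endothelial expression.

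Totals per library were 28205908 to 46464289 counts in the CCl4 model and 25646531 to 32631606 in the T libraries. Levels are given as CPM (counts scaled to a common library total, adjusted by TMM), separately for the 22 CCl4 and the 10 T libraries, so they are not compared between the experiments or, since no gene lengths were used, between genes. The TMM factors differed with the group, from 0.716 to 0.938 in healthy and from 1.09 to 1.17 in fibrosis libraries. LSEC markers were present in every group, but their summed level (11 genes) was 15200 to 29000 CPM in healthy, 3720 to 4370 in acute, 2550 to 3580 in fibrosis and 15900 to 20600 CPM in cirrhosis libraries. Against healthy LSECs, 8 of 11 were called lower in acute and 9 of 11 in fibrosis, beside 37.9% and 34.9% of all genes. Stab2, a scavenger receptor that defines these cells, was at 148 ± 73.1 CPM (SD, n = 5) in acute against 3470 ± 1280 CPM (SD, n = 6) in healthy libraries. The share of these shifts, and of any batch, in the results on the 10 genes was not tested. The labels name no batch, and a batch that went with the stage cannot be told apart from the stage. In bulk RNA, fewer cells of a type and less RNA per cell cannot be told apart either.

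Promoters of 9 of the 10 genes were matched by symbol in the RefSeq table of the GRCr8 assembly, all but Pgk1, with 2 entries for Hk1. The 250 bases before the transcription start are printed for 3 genes from different parts of the pathway, namely glucose uptake (Slc2a1, chr5:138002272-138002521, plus strand), glucose phosphorylation (Hk2, chr4:116841276-116841525, minus strand) and lactate formation (Ldha, chr1:106507842-106508091, plus strand), because Slc2a1 and Hk2 were higher in acute and fibrosis LSECs while Ldha was not, and the letters of the core hypoxia response element stand in the windows of Slc2a1 and Ldha and not in that of Hk2. Capitals mark ACGTG and GCGTG on either strand, and a CACGTG is counted on both strands.
Slc2a1: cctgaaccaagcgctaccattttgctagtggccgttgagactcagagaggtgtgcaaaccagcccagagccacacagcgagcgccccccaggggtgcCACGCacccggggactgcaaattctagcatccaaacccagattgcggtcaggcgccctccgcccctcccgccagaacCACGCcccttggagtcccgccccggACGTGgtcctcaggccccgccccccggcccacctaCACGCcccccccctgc
Hk2: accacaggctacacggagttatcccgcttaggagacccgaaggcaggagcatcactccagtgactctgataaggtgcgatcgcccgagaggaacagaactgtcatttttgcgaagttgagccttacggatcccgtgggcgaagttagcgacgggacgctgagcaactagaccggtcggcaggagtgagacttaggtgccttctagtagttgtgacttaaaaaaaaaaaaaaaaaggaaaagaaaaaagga
Ldha: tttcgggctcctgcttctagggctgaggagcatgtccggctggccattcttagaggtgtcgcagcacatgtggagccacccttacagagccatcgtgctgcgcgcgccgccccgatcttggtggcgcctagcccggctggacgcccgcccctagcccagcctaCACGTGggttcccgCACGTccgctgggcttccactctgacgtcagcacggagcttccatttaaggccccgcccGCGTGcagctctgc
The Slc2a1 window held 1 ACGTG and 3 GCGTG, the Ldha window 3 ACGTG and 1 GCGTG, and the Hk2 window 0 of either. Of the windows not printed, those of Hif1a, Pfkfb3, Pfkp and 1 of the 2 of Hk1 held a motif. Those of Epas1 and Egln3 held none. Of the 10 member promoters, 5 (50%) held ACGTG and 6 (60%) either motif, beside 16.6% and 36.7% of all 33469 RefSeq promoters in windows of the same length. Among related genes outside the 10, ACGTG stood in 18.2% of promoters for oxygen sensing, 28% for glycolysis, 50% for lactate and pyruvate and 42.3% for other HIF targets. Either motif stood in 45.5%, 40%, 78.6% and 73.1%, in the same order. The promoters were not matched for base composition. A match is a description of the letters in this window and not a binding site, and no binding was measured.

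Hif1a, the alpha subunit of hypoxia inducible factor 1, was low in healthy LSECs, where it ranged from 36 to 117 CPM (median 82.3). In acute libraries it was at 696, 547, 649, 633 and 819 CPM and in fibrosis libraries at 567, 515, 641, 628 and 627 CPM. In cirrhosis libraries it lay between 156 and 267 CPM (median 222). No library of a CCl4 group overlapped with a healthy one, and the cirrhosis libraries lay between the healthy and both earlier stages without overlap. Against healthy LSECs, Hif1a was 9.39-fold higher in acute LSECs (log2 fold change 3.23, SE 0.308, limma-voom adjusted p = 1.42e-06), 8.72-fold higher in fibrosis (3.13, SE 0.300, adjusted p = 1.87e-06) and 2.83-fold higher in cirrhosis (1.503, SE 0.291, adjusted p = 0.00104). From fibrosis to cirrhosis it was 2.96-fold lower (-1.57, SE 0.152, adjusted p = 1.34e-06).

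Epas1 took the opposite course. Its level was 1370 to 2510 CPM (median 2010) in healthy LSECs and 1070 to 1460 CPM (median 1360) in cirrhosis. In acute libraries it was 583, 520, 743, 1090 and 675 CPM, and in fibrosis libraries 642, 790, 765, 857 and 738 CPM. Every acute and fibrosis library was below every healthy library, whereas healthy and cirrhosis libraries overlapped. The separation of acute libraries depended on TMM. With library size in its place, acute replicate 4 (1280 CPM) was above healthy replicate 1 (1120 CPM). Epas1 was 2.74-fold lower in acute (log2 fold change -1.45, SE 0.209, limma-voom adjusted p = 4.6e-05) and 2.43-fold lower in fibrosis (-1.28, SE 0.160, adjusted p = 1.67e-05) than in healthy LSECs. The difference in cirrhosis was 1.54-fold (-0.62, SE 0.159, adjusted p = 0.0055) and close to the 1.5-fold limit of a call. It was no longer called without cirrhosis replicate 4, healthy replicate 3 or healthy replicate 5 (highest log2 fold change -0.56), nor with library size in place of TMM (-0.27, adjusted p = 0.136).

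The ratio of Hif1a to Epas1 counts within a library does not depend on any scaling. As log2, it averaged -4.76 ± 0.687 (SD, n = 6) in healthy, -0.0735 ± 0.439 (SD, n = 5) in acute, -0.347 ± 0.182 (SD, n = 5) in fibrosis and -2.63 ± 0.447 (SD, n = 6) in cirrhosis libraries. The ratio was thus 25.7-fold higher in acute, 21.3-fold higher in fibrosis and 4.36-fold higher in cirrhosis than in healthy LSECs, and 4.88-fold lower in cirrhosis than in fibrosis. In each of these 4 comparisons the groups did not overlap and the two-sided exact permutation test gave p = 0.00216, the smallest value the design allows, or 0.00302 after Benjamini-Hochberg adjustment over 7 comparisons. Acute and fibrosis LSECs differed 1.21-fold (exact permutation test p = 0.262, 5 against 5 libraries), and without acute replicate 4, the acute library with the highest Epas1 level, p was 0.0159 at a log2 difference of -0.45. This ratio was chosen after the values of both genes had been seen.

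**Figure D1:**
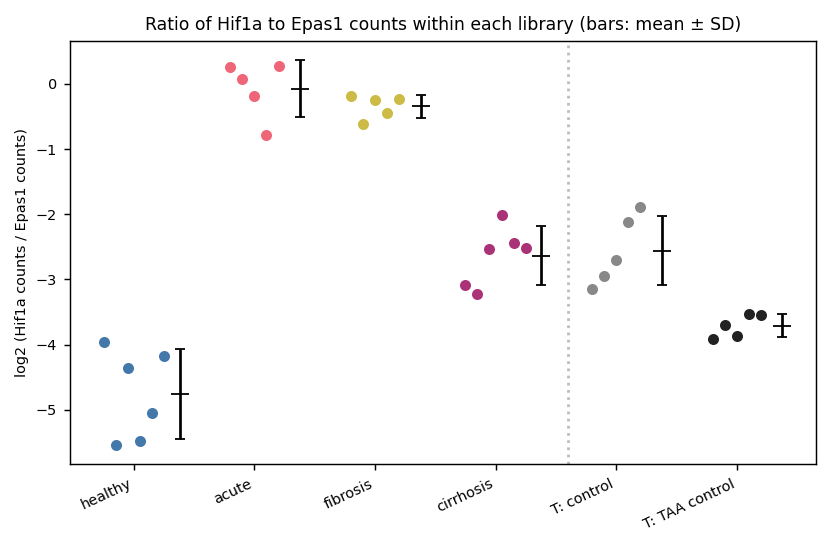
Each point is the log2 ratio of Hif1a to Epas1 expected counts (y axis, no unit) in one library, by group (x axis), with mean and SD as bars beside the points. Acute and fibrosis libraries lie near 0 (means -0.0735 and -0.347), healthy libraries near -4.76 and cirrhosis libraries between them at -2.63.

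Egln3, a prolyl hydroxylase that marks HIF alpha subunits in the presence of oxygen and is itself known as a HIF target, was the member whose highest level came last. It was at 0.49 to 9.72 CPM (median 3.16) in healthy libraries. In acute libraries it was at 2.98, 1.84, 4.53, 4.42 and 5.41 CPM and in fibrosis libraries at 8.31, 3.61, 8.55, 5.21 and 6.13 CPM. In cirrhosis it was at 9.31 to 17.5 CPM (median 15), above every acute and fibrosis library. It overlapped the healthy range in the single lowest cirrhosis library, replicate 3, against healthy replicate 2. Both statements depended on TMM. With library size in its place, cirrhosis replicate 3 (9.22 CPM) was below fibrosis replicates 12 (9.7 CPM) and 15 (9.32 CPM) and above healthy replicate 2 (8.25 CPM). Egln3 was 5.02-fold higher in cirrhosis than in healthy LSECs (log2 fold change 2.33, SE 0.495, limma-voom adjusted p = 0.00185), which placed it at percentile 97.2 of all genes tested by size of change. It was also 2.24-fold higher than in fibrosis (1.17, SE 0.228, adjusted p = 0.000514) and 3.88-fold higher than in acute LSECs (1.96, SE 0.266, adjusted p = 1.96e-05). In acute and fibrosis LSECs the log2 differences from healthy were 0.40 (adjusted p = 0.563) and 1.22 (adjusted p = 0.0768), and neither was called, although fibrosis was called without healthy replicate 1 or 2 (highest log2 fold change 1.57) and with library size as the scaling (1.61, adjusted p = 0.0253). Its counts are few, between 14 and 835 in a library.

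Slc2a1 encodes GLUT1, which carries glucose into the cell. It ranged from 10.6 to 72.7 CPM (median 51.4) in healthy and from 26.6 to 65.4 CPM (median 54.1) in cirrhosis libraries. In acute libraries it was at 379, 213, 510, 306 and 619 CPM and in fibrosis libraries at 457, 402, 507, 382 and 369 CPM. All acute and fibrosis libraries lay above all healthy and cirrhosis libraries. Slc2a1 was 10.4-fold higher in acute (log2 fold change 3.38, SE 0.487, limma-voom adjusted p = 4.56e-05) and 12-fold higher in fibrosis (3.59, SE 0.442, adjusted p = 1.5e-05) than in healthy LSECs, the largest changes among the 10 genes at those stages. In cirrhosis it was 9.12-fold lower than in fibrosis (-3.19, SE 0.217, adjusted p = 6.19e-08), and the difference from healthy was 0.34 with a 95% interval of -0.62 to 1.30 (adjusted p = 0.53).

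Hexokinases trap glucose in the cell by phosphorylation, and the 2 measured here behaved differently. Hk2, the more inducible of the enzymes, was at 13 to 41.5 CPM (median 26.7) in healthy and at 30.5 to 72.3 CPM (median 54.8) in cirrhosis libraries. In acute libraries it was at 129, 109, 166, 142 and 204 CPM and in fibrosis libraries at 129, 127, 156, 130 and 126 CPM, with no overlap with the other stages. It was 5.89-fold higher in acute (log2 fold change 2.56, SE 0.265, limma-voom adjusted p = 2.9e-06), 5.55-fold higher in fibrosis (2.47, SE 0.235, adjusted p = 1.71e-06) and 1.96-fold higher in cirrhosis (0.97, SE 0.276, adjusted p = 0.00948) than in healthy LSECs. Hk1, the form found in most cells, had means of 208 ± 81.2 CPM (SD, n = 6) in healthy, 185 ± 37.1 (SD, n = 5) in acute, 184 ± 12.5 (SD, n = 5) in fibrosis and 186 ± 20.8 CPM (SD, n = 6) in cirrhosis libraries. Its log2 differences from healthy were between -0.12 and -0.02, none was called, and the 95% interval in acute LSECs ran from -0.59 to 0.43. The sign of each of these changed without healthy replicate 3, which stood alone at 362 CPM.

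Phosphofructokinase sets the pace of glycolysis. Pfkfb3 makes fructose 2,6-bisphosphate, its activator, and is a known regulator of endothelial glycolysis. Pfkfb3 was at 632 to 2850 CPM (median 851) in healthy and 384 to 934 CPM (median 813) in cirrhosis libraries. It was at 402, 498, 471, 330 and 881 CPM in acute and at 706, 741, 917, 716 and 528 CPM in fibrosis libraries. The acute and healthy ranges overlapped. It was 1.97-fold lower in acute than in healthy LSECs (log2 fold change -0.98, SE 0.361, limma-voom adjusted p = 0.025). This call was lost without acute replicate 1 (-0.89, adjusted p = 0.0612) or acute replicate 4 (-0.82, adjusted p = 0.0717) and with library size as the scaling (-0.57, adjusted p = 0.114). Its differences from healthy of -0.38 in fibrosis and -0.44 in cirrhosis were not called (adjusted p = 0.304 and 0.282).

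Pfkp, the platelet form of phosphofructokinase, was at 2.87 to 14.1 CPM (median 8.71) in healthy LSECs. Levels of 11, 11.5, 15.6, 11.3 and 16.8 CPM in acute and of 17.8, 16.7, 16.7, 14 and 13 CPM in fibrosis libraries overlapped with these. Pfkp was 2.38-fold higher in fibrosis (log2 fold change 1.25, SE 0.354, limma-voom adjusted p = 0.00659). In acute LSECs the difference was 1.92-fold (0.94, SE 0.367, adjusted p = 0.0327), and this call was lost without healthy replicate 5 (0.68, adjusted p = 0.07), healthy replicate 6 (0.82, adjusted p = 0.0526), acute replicate 3 (0.89, adjusted p = 0.0647) or acute replicate 8 (0.86, adjusted p = 0.0663). Cirrhosis libraries, at 7.86 to 13.2 CPM (median 11.4), did not pass the test against healthy LSECs (0.62, adjusted p = 0.145).

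The lower part of the pathway is represented by Pgk1, a kinase that yields ATP, and Ldha, which turns pyruvate into lactate. Pgk1 was at 161 to 384 CPM (median 220) in healthy and at 138 to 196 CPM (median 146) in cirrhosis libraries. It was at 716, 710, 907, 668 and 756 CPM in acute and at 662, 651, 639, 567 and 553 CPM in fibrosis libraries, above all libraries of the other stages. Pgk1 was 3.2-fold higher in acute (log2 fold change 1.68, SE 0.212, limma-voom adjusted p = 1.57e-05) and 2.72-fold higher in fibrosis (1.45, SE 0.202, adjusted p = 4.19e-05) than in healthy LSECs. It was 4.11-fold lower in cirrhosis than in fibrosis (-2.04, SE 0.104, adjusted p = 5.44e-09). In cirrhosis it was also 1.57-fold lower than in healthy LSECs (-0.65, SE 0.200, adjusted p = 0.014), a call that was lost without healthy replicate 2 (-0.52) and with library size as the scaling (-0.31, adjusted p = 0.184).

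Ldha did not follow Pgk1. It was at 408 to 889 CPM (median 610) in healthy and 384 to 535 CPM (median 431) in cirrhosis libraries, and at 349, 293, 508, 364 and 463 CPM in acute and 499, 427, 471, 412 and 372 CPM in fibrosis libraries. The ranges of all 4 stages overlapped. The acute difference of 1.51-fold lower passed the test narrowly (log2 fold change -0.60, SE 0.215, limma-voom adjusted p = 0.0228). It was lost in 8 of 11 fits that each left out 1 library, namely healthy replicates 1, 2, 3, 4 and 6 and acute replicates 1, 2 and 4 (highest -0.48), and was -0.19 (adjusted p = 0.41) with library size. In fibrosis (-0.38, adjusted p = 0.0813) and cirrhosis (-0.46, adjusted p = 0.0496, 1.37-fold) Ldha was not called. Expected counts of Ldha were not whole numbers in 32 of 32 libraries and those of Pgk1 in 30 of 32, meaning that reads which fit several places were divided, so the levels of these genes are less certain. The other 8 genes had whole counts in all libraries.

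**Figure D2:**
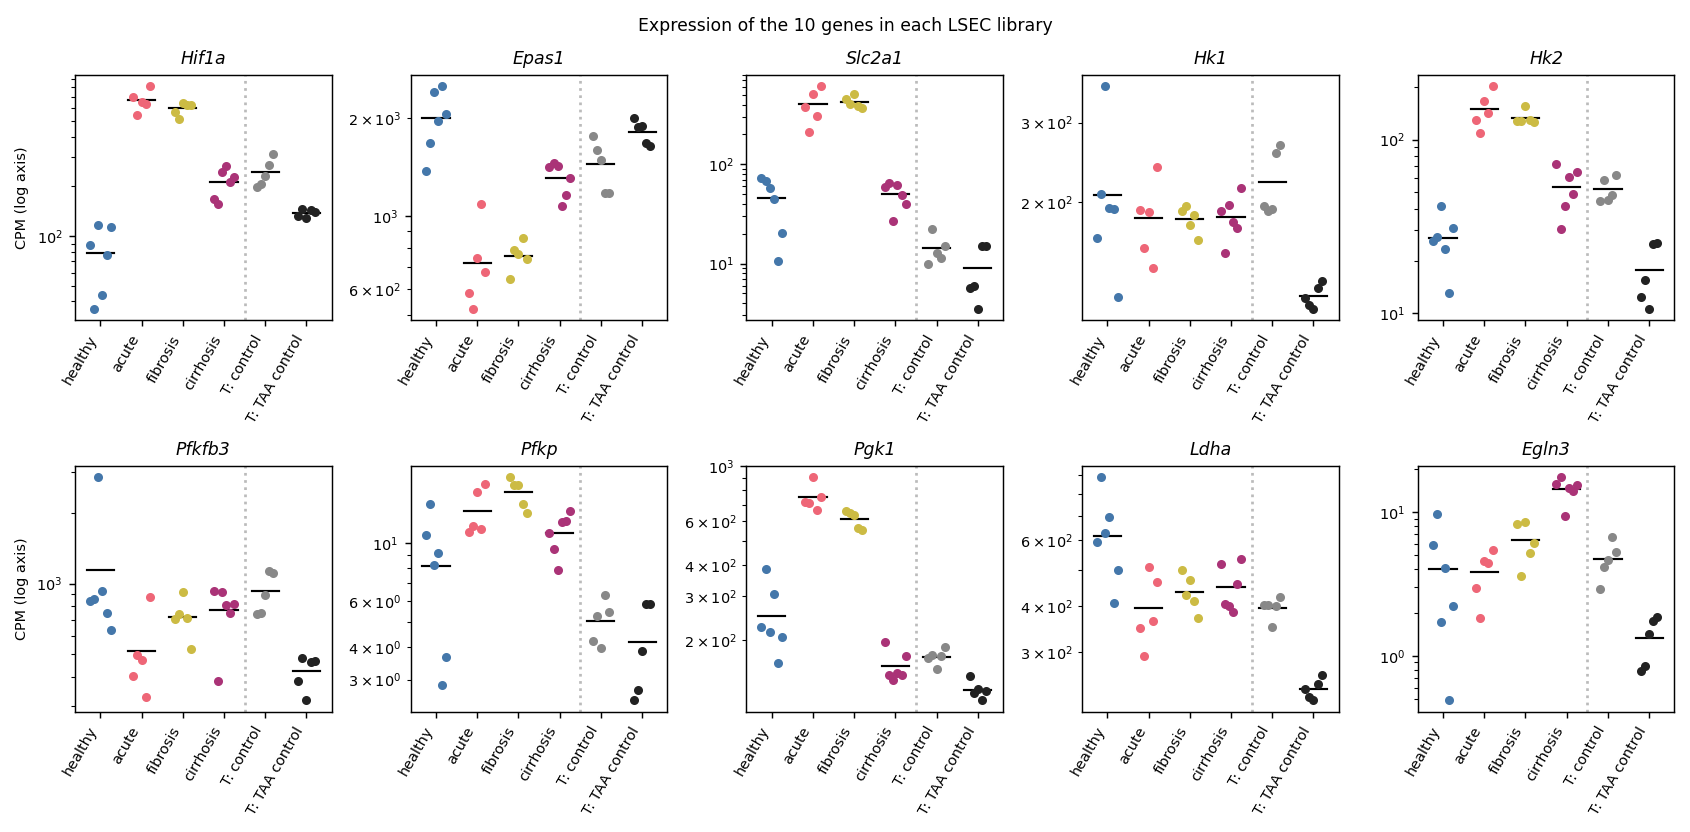
CPM of the 10 genes (y axes, log scale, each with its own range) in every library by group (x axis); points are libraries, lines are group means, and the dotted line separates the CCl4 from the T libraries, which were scaled separately. Hif1a, Slc2a1, Hk2 and Pgk1 are high in acute and fibrosis libraries, Epas1 is low there, and Egln3 is highest in cirrhosis (mean 14.4 CPM).

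**Figure D3:**
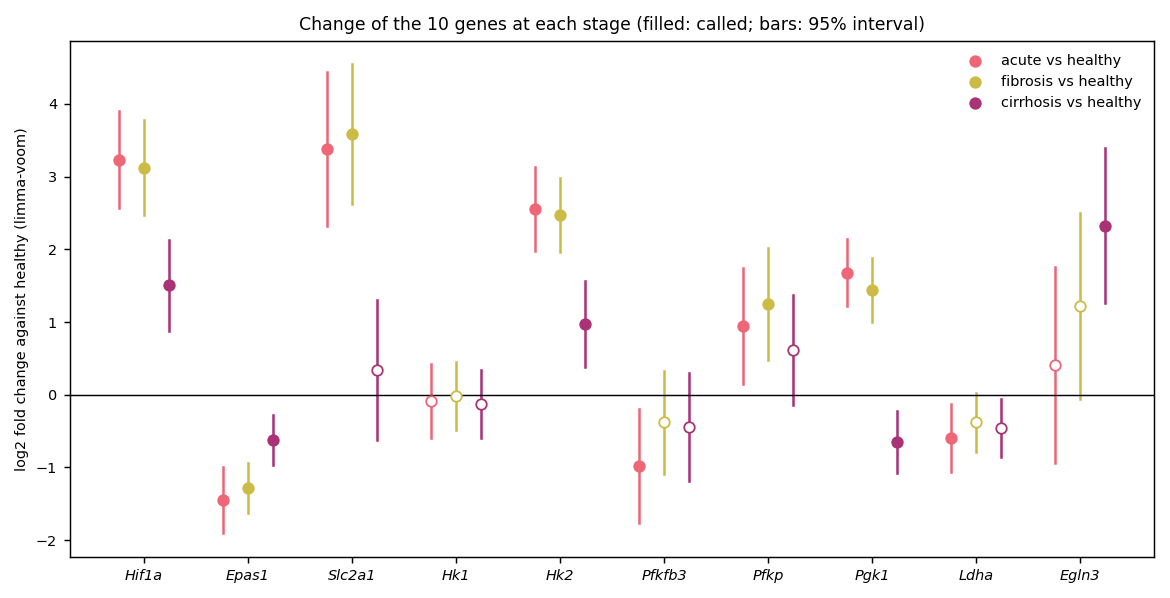
Log2 fold change of each gene (x axis) against healthy LSECs (y axis) in acute, fibrosis and cirrhosis libraries, with 95% intervals from limma-voom. Filled points passed an adjusted p of 0.05 and a 1.5-fold change, as did Hif1a at all 3 stages (3.23, 3.13 and 1.503).

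Taking the 10 genes by stage, 8 were called in acute against healthy LSECs, beside 73.4% of all genes tested. Of these, 5 were higher (Hif1a, Slc2a1, Hk2, Pfkp and Pgk1) and 3 lower (Epas1, Pfkfb3 and Ldha), where 35.5% of all genes were higher and 37.9% lower. All 11 fits that left out 1 library gave 6 or 7 calls, each losing at least 1 of Pfkfb3, Pfkp and Ldha. The groups did not overlap for 5 of the 10, beside 60.1% of all genes, so the number of members that changed is close to the background. In fibrosis, 6 were called, the same 5 higher and Epas1 lower, beside 70.2% of all genes (35.3% higher, 34.9% lower), and 5 did not overlap, beside 58.7%. In cirrhosis, 5 were called, with Hif1a, Hk2 and Egln3 higher and Epas1 and Pgk1 lower, beside 51.8% of all genes (27.1% higher, 24.7% lower), and only Hif1a did not overlap, beside 27.3% of all genes. Of these 5, Hif1a, Hk2 and Egln3 were called under all alternatives tried. The healthy libraries enter all 3 of these comparisons.

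Between fibrosis and acute LSECs, 0 of the 10 genes were called by limma-voom at the adjusted threshold and 0 by edgeR, whereas DESeq2 called Egln3. Of all genes, 11% were called, 10.2% higher and 0.732% lower in fibrosis. Pgk1 alone of the 10 did not overlap, beside 18.7% of all genes, and was lower in fibrosis by 1.14-fold (log2 fold change -0.19, limma-voom adjusted p = 0.19). With library size in place of TMM its groups overlapped, as acute replicate 8 (741 CPM) was below fibrosis replicate 12 (772 CPM). At an unadjusted p under 0.05 with the same fold limit, which 15.7% of all genes passed, Pfkfb3 (0.64, adjusted p = 0.0776) and Egln3 (0.86, adjusted p = 0.0839) were higher in fibrosis. Both were called without acute replicate 8, and Egln3 without fibrosis replicate 13. For Hif1a the 95% interval of the fibrosis minus acute difference was -0.29 to 0.17 on the log2 scale, and for Slc2a1 it was -0.31 to 0.80.

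From fibrosis to cirrhosis, 7 of the 10 were called, with Hif1a, Slc2a1, Hk2, Pfkp and Pgk1 lower and Epas1 and Egln3 higher, beside 63.8% of all genes (34.3% higher, 29.5% lower). Groups did not overlap for 6 of them, beside 62.9% of all genes. The Pfkp value in that comparison (log2 fold change -0.59, limma-voom adjusted p = 0.00264) stood at the fold limit and was lost in 6 of 11 fits that left out 1 library, namely cirrhosis replicates 1, 2 and 3 and fibrosis replicates 12, 13 and 15 (highest -0.49). Between cirrhosis and acute LSECs 6 were called, with Hif1a, Slc2a1, Hk2 and Pgk1 lower and Epas1 and Egln3 higher, beside 69.3% of all genes (37.5% higher, 31.8% lower), and 5 did not overlap, beside 65.5%.

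Genes of the same pathways that are not among the 10 were counted from lists of known function. Of 9 tested genes of HIF subunits and oxygen sensing, 3 were higher and 2 lower in acute LSECs, which is no more than the 35.5% higher and 37.9% lower of all genes, with a median log2 fold change of 0.24 beside -0.0855 over all genes. Arnt, the common partner of both alpha subunits, rose from 49.1 ± 8.88 CPM in healthy (SD, n = 6) to 78 ± 3.73 CPM in acute (SD, n = 5; log2 fold change 0.72, limma-voom adjusted p = 0.000587). Siah1, a ubiquitin ligase, rose by 1.39 (adjusted p = 0.00019), while its relative Siah2 fell by 1.01 (adjusted p = 0.000176). The hydroxylase Egln2 fell at each stage, by 0.64 in acute, 0.91 in fibrosis and 1.23 in cirrhosis LSECs (adjusted p = 0.0143, 0.00172 and 0.000432). In cirrhosis the hydroxylase Egln1 was lower as well (-0.63, adjusted p = 0.00662), opposite to Egln3.

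Of 24 tested genes of glucose uptake and glycolysis outside the 10, 2 were higher and 13 lower in acute, 4 higher and 12 lower in fibrosis, and 3 higher and 10 lower in cirrhosis than in healthy LSECs, with median log2 fold changes of -0.73, -0.71 and -0.77. Over all genes, 35.5% were higher and 37.9% lower in acute, 35.3% and 34.9% in fibrosis and 27.1% and 24.7% in cirrhosis LSECs, with medians of -0.0855, -0.0312 and 0.0704. Tigar, a phosphatase that lowers fructose 2,6-bisphosphate, rose from 8.71 ± 0.778 CPM (SD, n = 6) to 22.6 ± 2.68 CPM (SD, n = 5) in acute LSECs (log2 fold change 1.42, limma-voom adjusted p = 2.99e-06). Eno2, an enolase, rose from 1.9 ± 0.885 CPM to 17.9 ± 3.97 CPM in fibrosis (3.44, adjusted p = 9.74e-07). Pfkm, the muscle form of phosphofructokinase, fell from 56.5 ± 11 CPM to 3.97 ± 0.667 CPM in acute LSECs (-3.79, adjusted p = 1.28e-08), the opposite direction to Pfkp. The enzymes Aldoa and Gapdh were not called in acute LSECs (0.03, adjusted p = 0.921, and 0.09, adjusted p = 0.755). In cirrhosis, Aldoa (-1.34, adjusted p = 0.000895), Gapdh (-0.98, adjusted p = 0.00388), Eno1 (-1.22, adjusted p = 0.000664) and Pkm (-1.26, adjusted p = 0.00174) were all lower than in healthy LSECs. Pfkm, Gapdh, Eno1 and the acute values of Aldoa were picked to complete the steps after their values were seen.

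The liver form of pyruvate kinase, Pklr, known as a hepatocyte isozyme, was low in the same libraries as hepatocyte markers. It was at 97.9 ± 69 CPM in healthy (SD, n = 6) and 0.238 ± 0.193 CPM in acute libraries (SD, n = 5). The summed level of 10 hepatocyte markers was 1350 to 30400 CPM in healthy, 152 to 955 in acute, 1360 to 5390 in fibrosis and 3340 to 16100 CPM in cirrhosis libraries. In acute LSECs 10 of the 10 markers were called lower, beside 37.9% of all genes, with none at 0 throughout (Alb 273 ± 234 CPM, SD, n = 5). The part of hepatocyte RNA in the count of lower glycolytic genes was not tested. In fibrosis LSECs 6 of the 10 hepatocyte markers were called lower, beside 34.9% of all genes. For 0 of them were the groups without overlap, beside 58.7% of all genes. Hif1a, Slc2a1, Hk2 and Pgk1 were higher in acute and in fibrosis LSECs. The part of hepatocyte RNA in their values was not tested.

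**Figure D4:**
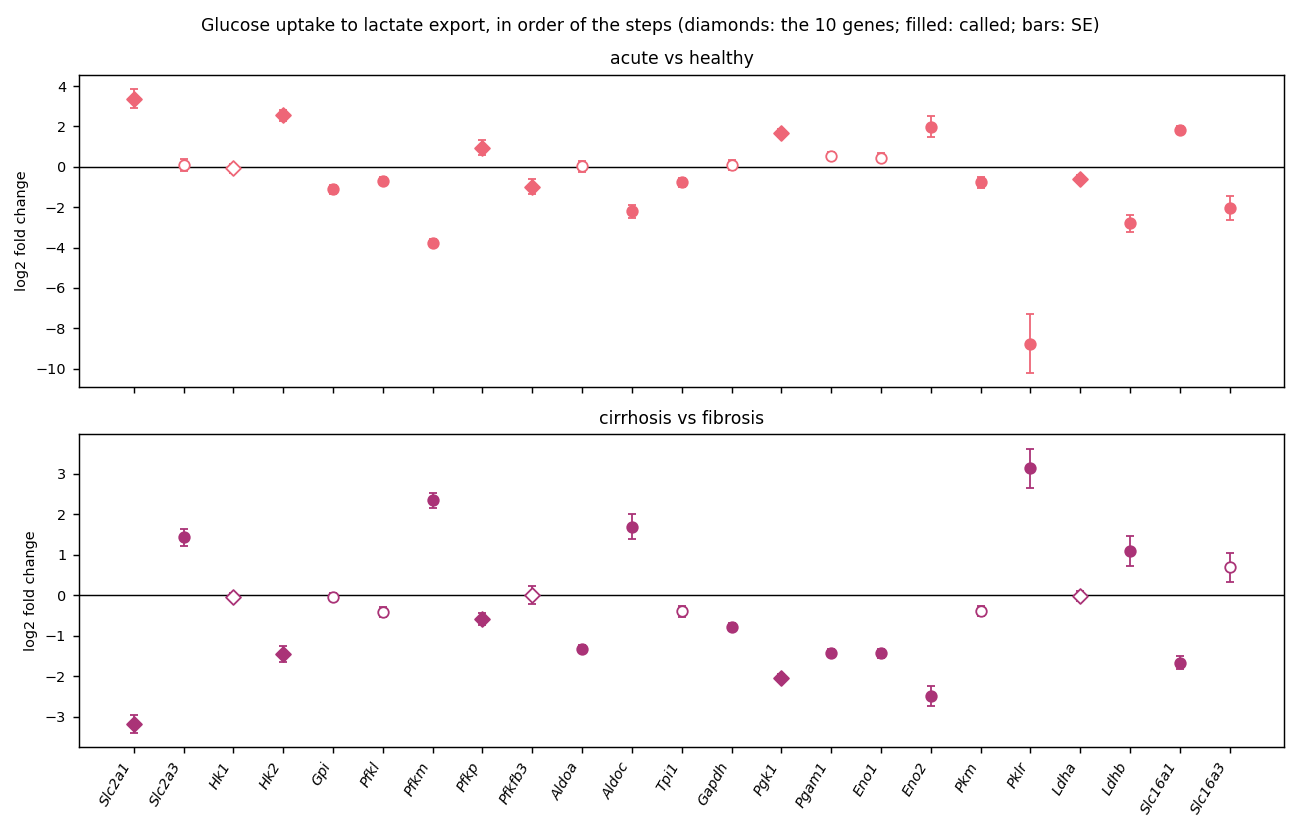
Log2 fold change with SE (y axes) of 23 genes from glucose uptake to lactate export (x axis, in order of the steps) in acute against healthy (top) and cirrhosis against fibrosis LSECs (bottom). Diamonds are members of the 10 genes and filled symbols are called; Slc2a1, Hk2, Pfkp and Pgk1 lie above 0 in the top panel and below 0 in the bottom panel, and Pfkm the other way round.

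Around lactate and pyruvate, 3 of 17 genes were higher and 9 lower in acute LSECs (median log2 fold change -1.02), beside 35.5% higher, 37.9% lower and a median of -0.0855 over all genes. Slc16a1, the lactate carrier MCT1, rose from 55.5 ± 11.6 CPM (SD, n = 6) to 190 ± 32.5 CPM (SD, n = 5; log2 fold change 1.82, limma-voom adjusted p = 1.99e-06). Pdp1, a phosphatase that switches on pyruvate dehydrogenase, rose from 12.3 ± 3.29 to 88 ± 23.3 CPM (2.86, adjusted p = 4.31e-07). Pdk2 and Pdk4, kinases that switch this complex off, fell by 3.21 and 4.31 (adjusted p = 0.000162 and 0.000367). Ldhb, the other main subunit of lactate dehydrogenase, fell from 84.2 ± 34.8 to 16.2 ± 8.88 CPM in fibrosis LSECs (-2.32, adjusted p = 0.000315). From fibrosis to cirrhosis, Slc16a1 and Pdp1 fell by 1.67 and 1.65 (adjusted p = 1.08e-06 and 1.89e-07) and Pdk4 was higher (2.41, adjusted p = 1.5e-05).

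Of 30 other known HIF target genes tested, 15 were higher and 6 lower in acute (median log2 fold change 0.84) and 18 higher and 5 lower in fibrosis LSECs (median 1.23), whereas over all genes 35.5% were higher and 37.9% lower in acute and 35.3% and 34.9% in fibrosis. In cirrhosis, 10 of 29 were higher and 6 lower (median 0.19), near the 27.1% higher and 24.7% lower of all genes (median 0.0704). Adm, the vasodilator adrenomedullin, rose from 57.1 ± 14 CPM in healthy (SD, n = 6) to 1130 ± 316 CPM in acute LSECs (SD, n = 5; log2 fold change 4.34, limma-voom adjusted p = 1.06e-08) and was lower than healthy in cirrhosis at 28.9 ± 7.24 CPM (-1.01, adjusted p = 0.00144). The iron carrier receptor Tfrc rose from 15.6 ± 7.56 to 296 ± 25.5 CPM in acute LSECs (4.37, adjusted p = 4.08e-08). Bhlhe40, a transcriptional repressor, moved against these, from 645 ± 170 CPM in healthy to 22.3 ± 7.03 CPM in acute LSECs (-4.84, adjusted p = 6.48e-09). Vegfa, the vascular growth factor, picked after its values were seen, was 2.64 higher in acute (adjusted p = 1.03e-05) and 2.47 higher in fibrosis (adjusted p = 5.01e-06), and not called in cirrhosis (0.67, adjusted p = 0.0581). Several of these genes also answer to other signals, so the list is not specific to hypoxia.

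Genes whose log2 CPM followed Hif1a most closely over the 22 CCl4 libraries, among 15578 genes, were Zc3h15 (Pearson r = 0.991), Mphosph10 (0.99) and Brix1 (0.99), and 1745 genes reached 0.9 (2515 with library size in place of TMM and 881 with Spearman's coefficient). For Epas1 they were Bbs1 (0.964), Clec14a (0.955) and Pcdhgb8 (0.955), with 434 genes at 0.9 or more, a number that was 8 with library size and 162 with Spearman's coefficient. These values describe libraries that share their 4 groups, and with Spearman's coefficient 0 of the 3 genes remained for either factor. After the group means were removed, the highest correlations among the members over 22 libraries were of Slc2a1 and Pfkp (r = 0.868) and of Pgk1 and Ldha (0.867). Next came Hk1 and Pfkfb3 (0.854), Pfkp and Ldha (0.817), and Slc2a1 and Egln3 (0.799). Healthy replicate 3 stood apart in both Hk1 (362 CPM) and Pfkfb3 (2850 CPM). These correlations pool the 4 groups, and the spread relative to the mean was largest in healthy libraries, as with Egln3 (84%) and Pfkfb3 (73.8%). Whether they hold within each stage was not tested. Hif1a and Slc2a1 did not vary together (-0.181, beside 0.812 over the libraries as they are). For Hif1a and Pgk1 the value was -0.661, beside 0.661 over the libraries as they are. Among healthy libraries, replicates 5 and 6 were the lowest in Slc2a1 (10.6 and 20.3 CPM) and Pfkp (2.87 and 3.67 CPM), and replicates 1 and 2 the highest in Egln3 (5.91 and 9.72 CPM). Lymphocyte markers summed to 393 and 311 CPM in replicates 1 and 2 and to 52.1 to 174 CPM in the others. Their part in these differences was not tested.

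In the T libraries, 6 of the 10 genes were lower in the group labelled TAA control than in the group labelled control and 0 higher, where 27.6% of all genes were called, 12.7% higher and 14.9% lower. For 7 of the 10 the groups did not overlap, beside 35.1% of all genes. Hif1a was at 133, 145, 129, 144 and 140 CPM in the group labelled TAA control and at 200, 208, 230, 271 and 316 CPM in the group labelled control, without overlap (log2 fold change -0.81, SE 0.125, limma-voom adjusted p = 0.000475). Hk2 was at 12.4, 15.6, 10.5, 25 and 25.2 CPM against 44.4, 58.7, 44.5, 47.9 and 62.3 CPM (-1.64, SE 0.234, adjusted p = 0.000289). Hk1, which was not called between any CCl4 stages, was called here, at 123, 118, 116, 129 and 134 CPM against 196, 191, 194, 257 and 268 CPM (-0.82, SE 0.116, adjusted p = 0.000284). Egln3 was 3.68-fold lower (-1.88, SE 0.325, adjusted p = 0.000876), Pfkfb3 2.18-fold (-1.12, SE 0.167, adjusted p = 0.000369) and Ldha 1.65-fold (-0.73, SE 0.0754, adjusted p = 4.9e-05), each lower in every library.

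Epas1 was at 2000, 1880, 1890, 1670 and 1640 CPM in the group labelled TAA control and at 1760, 1600, 1490, 1180 and 1180 CPM in the group labelled control, and the difference of 0.34 (SE 0.115, limma-voom adjusted p = 0.0304) was under the fold limit. The log2 ratio of Hif1a to Epas1 was 2.22-fold lower as a fold in the group labelled TAA control (difference -1.15, exact permutation test p = 0.00794, the smallest possible with 5 against 5 libraries, adjusted 0.00926), with no overlap. Pgk1 was lower in every library (-0.45, adjusted p = 0.000837) but by less than 1.5-fold, and Pfkp did not pass the test (-0.39, adjusted p = 0.237). Slc2a1 was at 5.72, 6, 3.48, 15 and 15 CPM against 9.84, 22.3, 12.9, 11.5 and 15.2 CPM and was not called (-0.90, adjusted p = 0.0706). The 2 high values are of replicates 14 and 15, the most alike libraries of any group, with a chi-square per degree of freedom of 3.05 over genes against 25.2 for the next pair, and with both counted as 1 sample Slc2a1 was called (-1.13, adjusted p = 0.0311). It was also called without either replicate 14 or replicate 15 (lowest -1.13). The main T tests and the permutation test count these replicates as 2 libraries, and whether they share a source was not tested.

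Markers of stellate cells and fibroblasts summed to 2050 to 5260 CPM in the T group labelled control and to 344 to 542 CPM in the group labelled TAA control. In the latter 7 of 9 were called lower, beside 14.9% of all genes. Markers of hepatocytes summed to 2340 to 5770 and 675 to 1560 CPM, and immediate early genes of dissociation stress to 15300 to 31700 and 48700 to 67900 CPM, in the same order. The part of these in the values of the 10 genes was not tested. Of the other HIF target genes, 1 was higher and 10 lower of 29 in the group labelled TAA control, while of 24 other glycolytic genes 1 was higher and 4 lower, beside 12.7% higher and 14.9% lower of all genes.

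In the CCl4 libraries the dissociation stress genes (14) summed to 51200 to 83100 CPM in healthy, 1580 to 5580 in acute, 4650 to 7450 in fibrosis and 27300 to 53300 CPM in cirrhosis libraries. Of these, 14 of 14 were called lower in acute than in healthy LSECs, beside 37.9% of all genes. Macrophage markers summed to 372 to 4110, 85.4 to 249, 36.6 to 229 and 919 to 3350 CPM in the same order, and stellate cell and fibroblast markers to 280 to 785, 1320 to 2120, 1280 to 1710 and 622 to 2010 CPM. The high acute and fibrosis sums of the latter are of Reln, at 1670 and 1350 CPM against 166 CPM in healthy libraries. The other markers did not share this course in acute libraries, where Col3a1 was at 5.2 against 223 CPM and Lrat at 4.35 against 31.7 CPM. Of 8 tested there, 1 was called higher and 5 lower (median log2 fold change -2.6), beside 35.5% and 37.9% of all genes. In fibrosis 3 of 8 were called higher and 3 lower, near the 35.3% and 34.9% of all genes. In cirrhosis 7 of 9 were called higher and 0 lower, where 27.1% of all genes were higher and 24.7% lower. Their median log2 fold change there was 2.08, beside 0.0704 over all genes. The part of this rise in the cirrhosis values of the 10 genes was not tested. Lymphocyte markers summed to 52.1 to 393, 7.67 to 19.3, 9.17 to 58.7 and 104 to 242 CPM, and proliferation genes to 377 to 593, 177 to 246, 168 to 214 and 378 to 453 CPM. Neutrophil, cholangiocyte and erythroid markers reached at most 44.7, 106 and 180 CPM in a library. Hif1a, Slc2a1, Hk2 and Pgk1 were highest, and Epas1 lowest, at the 2 stages with the lowest sums of LSEC, macrophage, lymphocyte, stress and proliferation genes. The part of these shifts in their values was not tested.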

How the data were processed

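RNA of LSECs isolated from rat livers on an iodixanol gradient was sequenced from strand-specific poly(A) libraries. The authors aligned the reads with STAR to the rat assembly Rnor_6.0 and ran RSEM, whose expected counts per gene, without normalization and often fractional where copies share reads, are the deposited values for 32623 genes. Tool versions are not given in the sources used here. Groups came from the sample labels; the cirrhosis labels give no duration, which was taken from the study description. Titles and descriptions of 4 T libraries differ in their number, and titles were used. The study's description gives the libraries as from separate animals. T replicates 14 and 15 were far more alike than any other pair, and whether they come from separate animals was not tested.

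Expected counts were rounded and tested with limma-voom (R 4.3.3, limma 3.58.1, edgeR 4.0.16) on the 2 groups compared, after filterByExpr and TMM. The study's unadjusted threshold was tried as an alternative; here genes were called at a Benjamini-Hochberg adjusted p under 0.05 over all genes tested and a fold-change above 1.5. Log2 CPM used a pseudocount of 0.5. The fits were tested on simulated data with known changes in few genes, as many up as down. Such data cannot test the scaling where most genes differ, as in acute against healthy LSECs (73.4% called). Alternatives were edgeR's quasi-likelihood test, DESeq2 1.42.0, other scalings and filters, library weights, a single fit, a block for shared replicate numbers, and leaving out single libraries. Plots were made in Python 3.11.15 (matplotlib 3.10.9). The 10 genes and all lists were chosen with earlier results of these data known. Marker lists cover LSECs, macrophages, neutrophils, lymphocytes, hepatocytes, stellate cells, cholangiocytes, erythroid cells, dissociation stress and proliferation. Named pathway genes were, per list and comparison, up to 3 with the largest change in each direction among called genes with a mean of at least 10 CPM in a group. Totals per library were 25646531 to 46464289 counts, and precision is limited mainly by the number of rats. Promoter sequences are RefSeq's for GRCr8; gene positions on Rnor_6.0 and protein sequences were not used here. Some genes of the pathway lists are not reported here by name.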

Additional observations from a re-analysis of the deposited data

Results flagged for a closer look

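In 4 of 60 groups of values (10 genes in 6 groups) the highest or lowest library was farther from the rest than Dixon's 95% limit, and about 3 such groups arise by chance. Pfkfb3 was at 2850 CPM in healthy replicate 3, with the next healthy library at 930 CPM, and Hk1 was at 362 CPM in the same library, with the next at 209 CPM. Pfkfb3 was at 384 CPM in cirrhosis replicate 2, below the next library at 750 CPM. Hk2 was at 156 CPM in fibrosis replicate 15, above the next at 130 CPM. Healthy replicate 3 also had the lowest sum of macrophage markers among healthy libraries, 372 CPM, and a low sum of hepatocyte markers, 3698 CPM, and the part of these in its values was not tested.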

How the results depend on the processing

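Of 800 fold changes of the 10 genes recomputed under other settings (7 comparisons), 728 kept their direction and their side of the threshold, 23 were no longer called, 17 became called and 32 changed sign. Each sign change was in a value that was not called. With library size in place of TMM, which raised the median log2 fold change of all genes from -0.0855 to 0.323 in acute, from -0.0312 to 0.367 in fibrosis and from 0.0704 to 0.416 in cirrhosis against healthy LSECs, and the share of higher genes among those called from 48.4% to 58.2%, from 50.3% to 60.9% and from 52.2% to 71.3%, Hk1 was at 0.33, 0.38 and 0.22 and, in fibrosis, Pfkfb3 and Ldha at 0.017. Hif1a, Slc2a1, Hk2 and Pgk1 stayed higher and Epas1 lower in acute and fibrosis LSECs under each scaling.

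Further sign changes against healthy LSECs were Egln3 in acute LSECs (edgeR -0.042, library weights -0.41, replicate block -0.56), Hk1 (0.033 without a low-count filter in acute, 0.013 with DESeq2 size factors in fibrosis, 0.020 with upper-quartile factors in cirrhosis) and Slc2a1 in cirrhosis (library weights -0.10). Between fibrosis and acute LSECs, Hk2 was at 0.090 with library weights. Between cirrhosis and fibrosis, Pfkfb3 was at 0.031 with edgeR, 0.056 with DESeq2, 0.081 with library weights, 0.024 with DESeq2 size factors, 0.085 with upper-quartile factors, 0.018 without a filter and 0.018 with a filter of 1 CPM. There Ldha was at 0.010 with DESeq2, 0.0056 with its size factors, 0.067 with upper-quartile factors and 0.0022 without a filter, and Hk1 at 0.037 with upper-quartile factors. Between cirrhosis and acute LSECs, Hk1 was at 0.019 with DESeq2, 0.0064 with library weights, 0.035 with DESeq2 size factors, 0.17 with upper-quartile factors, 0.064 without a filter, 0.026 with a filter of 1 CPM and 0.044 with the replicate block. The cause was not tested.

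In cirrhosis against healthy LSECs, 3 genes instead of 5 were called with upper-quartile factors and 3 with a filter of 1 CPM, each without Epas1 and Pgk1. In fibrosis against acute LSECs, where 0 were called, an unadjusted p gave 2, DESeq2 1 and library weights 2. With each library left out, the number called was 6 to 7 in acute and 6 to 7 in fibrosis against healthy, 4 to 5 in cirrhosis against healthy, 0 to 2 in fibrosis against acute (2 without acute replicate 8, 1 without fibrosis replicate 13), 6 to 7 in cirrhosis against fibrosis, 6 to 7 in cirrhosis against acute LSECs and 6 to 7 in the T libraries. Of 760 such fold changes, 59 changed their call or their sign. The values whose sign changed ranged, against healthy, from -0.098 to 0.75 for Egln3 in acute, from -0.17 to 0.14 for Hk1 in acute, from -0.20 to 0.15 for Hk1 in fibrosis, from -0.27 to 0.053 for Hk1 in cirrhosis and from -0.034 to 0.54 for Slc2a1 in cirrhosis LSECs. Between fibrosis and acute LSECs they ranged from -0.13 to 0.010 for Hif1a and from -0.15 to 0.072 for Hk2. Between cirrhosis and fibrosis they ranged from -0.094 to 0.018 for Hk1, from -0.11 to 0.20 for Pfkfb3 and from -0.082 to 0.051 for Ldha, and between cirrhosis and acute LSECs from -0.11 to 0.070 for Hk1. The log2 difference of the Hif1a to Epas1 ratio between fibrosis and acute LSECs ranged from -0.45 to -0.19 and passed the exact permutation test only without acute replicate 4, and the other 6 differences kept their call.

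Healthy, acute and cirrhosis libraries share replicate numbers but come from different rats. Correlations of the deviations of libraries with the same number were 0.0346, 0.0311, 0.122 and 0.197 between acute and healthy and -0.241 to 0.285 between cirrhosis and healthy. Acute replicates 2 and 4, but not 1 and 3, correlated most with the healthy library of their own number, and no cirrhosis replicate did. Correlations from so few libraries cannot tell whether a number stands for a shared day or batch. With the replicate block, 7 genes were called in acute against healthy (Pfkp lost), 5 in cirrhosis against healthy and 7 in cirrhosis against acute LSECs (Pfkfb3 added, 0.72). Low counts limit Egln3 and Pfkp, and the division of reads among copies limits Ldha and Pgk1.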
